A study of Mus musculus with 16 samples.

Results

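The nuclear genome encodes most subunits of the 5 enzyme complexes of mitochondrial oxidative phosphorylation. Here 72 such genes were followed in T cells of mice given venetoclax or vehicle. They were taken by symbol: the subunits of complex I (Nduf), complex II (Sdh), complex III (Uqcr and Cyc1), complex IV (Cox4 to Cox8) and the ATP synthase, complex V (Atp5). Symbols of assembly factors (Ndufaf) and pseudogenes (-ps) were left out, and a gene had to be listed in the tables of both T cell subsets. The choice went by symbol alone, so a gene with an assembly role under another name was not removed. The 72 were among 10774 genes in both tables (11171 in the Tcon table and 11067 in the Treg table). Complex I had 35 of them, complex II 3, complex III 8, complex IV 11 and complex V 13. Ndufa4 was counted with complex IV, where its protein resides. Atp5s and Atp5sl carry the Atp5 name but encode no subunit of the ATP synthase, so these 2 were kept apart. Sdhd, Cox4i2, Cox6a2, Cox8b and Ndufa4l2 were not analysed here.

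Complexes I and II pass electrons from NADH and succinate to ubiquinone, complex III passes them on to cytochrome c, and complex IV hands them to oxygen. Complexes I, III and IV pump protons out of the matrix, and complex V uses their return to make ATP. Complexes I, III, IV and V mix nuclear-encoded subunits with a few encoded by mitochondrial DNA, while all of complex II is nuclear-encoded. In T cells the pathway is known to support resting survival, memory and the suppressive function of regulatory T cells.

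RNA was sequenced from CD4+ FOXP3- conventional T cells (Tcon) and CD4+ FOXP3+ regulatory T cells (Treg) of spleen and lymph node. All mice were FOXP3-IRES-GFP reporters (B6.Cg-Foxp3tm2Tch/J) listed with the genotype WT, so vehicle and venetoclax animals alike carried the reporter that marks Foxp3-expressing cells with GFP. They received either vehicle or venetoclax at 50 mg/kg for 14 days. Venetoclax blocks BCL-2, a protein that holds back apoptosis. The 4 groups had 4 libraries each, labelled as biological replicates, and p-values measure the spread among these libraries.

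Libraries held 22982210 to 24960570 reads in Tcon and 21335006 to 25027038 in Treg. CPM below are the recovered reads of a gene scaled to a common library total. The summed CPM of 5 Treg markers, Foxp3 among them, was 3421 to 4204 in Treg libraries and 122 to 190 in Tcon libraries. Within each subset these sums were higher at venetoclax without overlap (3879 to 4204 against 3421 to 3849 in Treg, 156 to 190 against 122 to 153 in Tcon), and their part in the results was not tested. The CD8 T cell markers Cd8a and Cd8b1 together stayed at or below 22.7 CPM, the B and plasma cell markers at or below 32.9, the myeloid markers at or below 15.99 and the erythroid and platelet markers at or below 35.99. NK cell markers were at 27.1 to 53.6 CPM in Tcon and 1.46 to 3.59 in Treg. Pecam1 and Col1a1, listed here as stromal and endothelial markers, were together at 206 to 250 CPM in Treg vehicle and, without overlap, at 168 to 190 in Treg venetoclax. In Tcon they were at 238 to 278 and 216 to 247. Nearly all of this was Pecam1, which fell in Treg from 5593 ± 497 to 4116 ± 220 normalized counts (SD, n = 4, limma adjusted p = 0.000717). Which cells the Pecam1 reads came from, the T cells themselves or others, was not tested. The part of these markers in the results was not tested either. In Tcon, vehicle 3 and venetoclax 3 stood apart from the other 6 libraries, above them for the genes described here and for ribosomal protein genes. Reads of the Y-linked genes Ddx3y and Kdm5d summed to 7979 (Tcon) and 7593 (Treg) normalized counts in vehicle 2 and to 8845 and 7658 in venetoclax 2. They were at intermediate levels in venetoclax 1 (1941 and 2448) and venetoclax 3 (4274 and 3929), and at 0.988 or less in the other libraries. The labels do not say whether a replicate is 1 animal or a pool of animals. The treatment groups thus differed in Y-linked reads, and a fit that carries their level as a covariate is given beside the results it changes. Bulk libraries cannot tell fewer cells with a transcript from less of it per cell.

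Promoters of respiratory chain genes are known for sites of the factors NRF1, GABP (an ETS factor) and YY1, so the sequences at their starts are shown before the values. RefSeq windows of 300 bases (250 before to 50 after an annotated start, GRCm38.p6) were given for 61 of the 72 genes and were searched on both strands for 3 motifs. The NRF1 motif, GCGCA and GCGC with any 1 base between them, was found for 14 of the 61 genes (23.0%) and for 12.3% of the 8942 Treg table genes with a window. CCGGAAG, the ETS motif, was found for 12 (19.7%) against 21.4%. AAGATGGCG, the YY1 motif, was found for 8 (13.1%) against 3.78%. Among all 27025 genes with a window the shares were 5.19% for NRF1, 9.93% for ETS and 1.64% for YY1. A match is a run of letters and not a bound site.

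The next sequences run from 120 bases before to 30 bases after the annotated start, 5′ to 3′ on the gene's strand, with motif letters in capitals. Ndufb4 (chr16:37654339-37654488, minus strand) and Cox8a (chr19:7217587-7217736, minus strand) fell in Treg, and Sdha (chr13:74350211-74350360, minus strand) did not pass the test. Ndufb4 and Sdha both carry the NRF1 motif more than once, and Cox8a carries the ETS motif on its reverse strand (CTTCCGG).
Ndufb4: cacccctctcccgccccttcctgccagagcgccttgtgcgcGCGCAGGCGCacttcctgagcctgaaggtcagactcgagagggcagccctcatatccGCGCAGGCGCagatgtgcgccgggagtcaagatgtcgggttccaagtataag
Sdha: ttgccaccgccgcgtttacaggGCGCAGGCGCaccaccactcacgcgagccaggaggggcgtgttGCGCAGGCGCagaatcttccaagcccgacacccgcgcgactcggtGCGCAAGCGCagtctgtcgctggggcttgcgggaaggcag
Cox8a: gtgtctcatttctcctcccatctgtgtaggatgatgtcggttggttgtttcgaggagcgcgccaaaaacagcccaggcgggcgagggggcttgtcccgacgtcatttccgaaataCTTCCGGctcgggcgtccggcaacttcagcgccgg
Of 9 YY1 matches, counted in each window, 7 began 20 to 40 bases after an annotated start. The genes that fell in Treg and had such a match are shown as 30 bases around it, with the match in capitals. The Atp5sl site was counted again in an overlapping window, where it began at -53, before the start of that window.
Ndufc1 (chr3:51408914-51408943, minus strand): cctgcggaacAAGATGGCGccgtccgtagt
Atp5sl (chr7:25619430-25619459, plus strand): gttacctggcAAGATGGCGgcgcccagagc
Windows were given for 8 of the 11 genes that fell in Treg. Of these, 2 had the ETS motif, 1 the NRF1 motif and 2 the YY1 motif, and of the other 53 genes 10, 13 and 6 had them.

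In Treg, 11 of the 72 genes (15.3%) fell with venetoclax and 0 rose (limma, adjusted p under 0.05 over all genes of the table), where 8.81% of all Treg genes fell and 10.7% rose. The 11, mostly counted with complexes I and IV, fell by 11.1% to 22.0%. The count depended on which libraries were kept, from 0 without venetoclax 1 and 3 to 24 without vehicle 2. On the log2 scale 68 of 72 genes had a change below 0, against 48.7% of all genes, though genes of the same libraries are not independent. The median log2 change was -0.14, or -9.34%, and that of all genes was 0.00. At an unadjusted p under 0.05 there were 32 of the 72 (44.4%), all below 0, where 33.3% of all Treg genes passed in either direction. Other fits called 13 genes with TMM scaling (9.55% of all genes fell), 12 of those with a mean of at least 50 (10.1%), 14 with edgeR (9.64%), 17 with DESeq2 (10.3%), 14 with the replicate number as a block (9.93%) and 21 with upper quartile scaling (12.2%), the 11 among them each time, and 0 rose in any of these. In 11 genes all 4 venetoclax libraries lay below all 4 vehicle libraries, as in 10.7% of all genes, and 0 genes showed the opposite order, as 12% of all genes did.

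**Figure D1:**
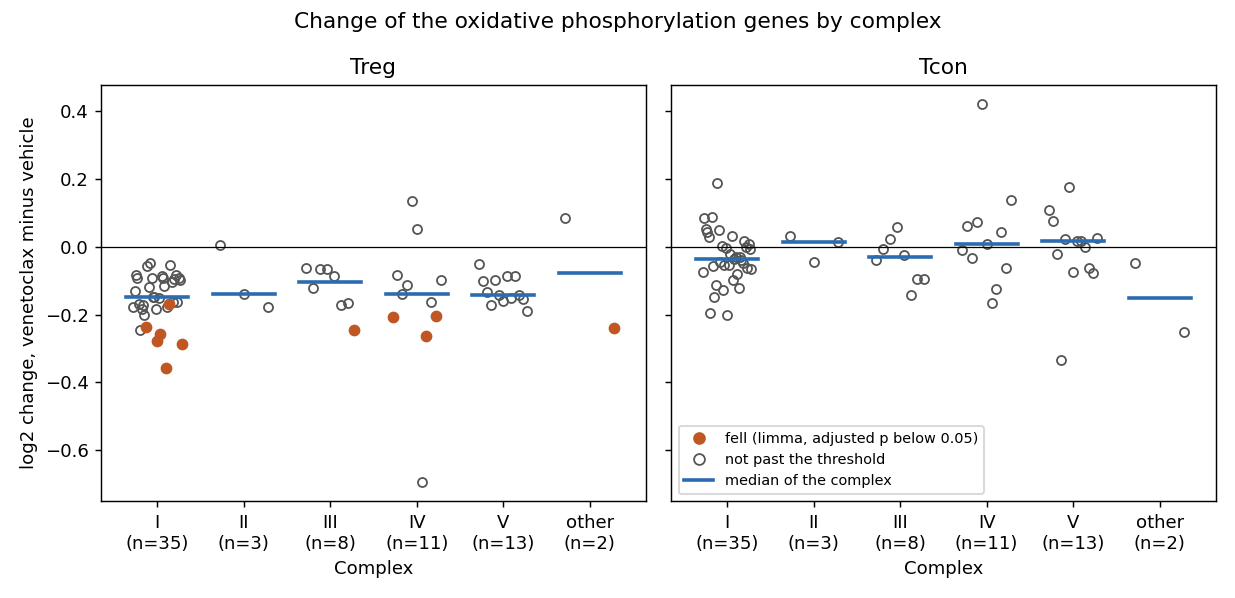
Log2 change (venetoclax minus vehicle, 4 against 4 libraries) of each of the 72 genes in Treg and Tcon, by complex. Filled points are the 11 genes that fell in Treg (limma, adjusted p under 0.05), open points did not pass, and bars are medians. Treg points lie below 0 for 68 genes, and Tcon points lie on both sides with none past the threshold.

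On GRCm38.p6 the 11 genes that fell are placed with Ndufs1 at chr1:63143592-63176822, Ndufc1 at chr3:51405479-51408955, Ndufb6 at chr4:40270591-40279421, Atp5sl at chr7:25619414-25625550, Cox4i1 at chr8:120668225-120674209, Uqcrq at chr11:53427922-53430831, Ndufb4 at chr16:37647602-37654368, Ndufv3 at chr17:31520115-31531326, Ndufa7 at chr17:33824572-33838316, Cox7a2l at chr17:83501917-83514333 and Cox8a at chr19:7215158-7217616.

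Median changes of the complexes lay close together in Treg. Median log2 changes were -0.15 for complex I, -0.14 for complex II, -0.10 for complex III, -0.14 for complex IV and -0.14 for complex V. The genes past the threshold were 6 of 35 in complex I, 0 of 3 in complex II, 1 of 8 in complex III, 3 of 11 in complex IV and 0 of 13 in complex V, plus Atp5sl. All of these fell, as 8.81% of all Treg genes did. For complex II the count was 2 of 3 at an unadjusted p under 0.05 (33.3% of all genes), 1 with edgeR (9.64% of all genes fell) and 1 with DESeq2 (10.3%). For complex V it was 5 of 13 at that threshold, 0 with edgeR and 1 with DESeq2. No difference between complexes was tested.

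Complex I takes electrons from NADH, and all 35 of its genes were below 0 in Treg. Ndufc1, an accessory subunit of the membrane arm, had 316, 311, 354 and 296 normalized counts in the vehicle libraries and 218, 266, 264 and 250 in the venetoclax libraries. All 4 venetoclax values were below the lowest vehicle value, and the log2 change was -0.36 (SE 0.09, limma adjusted p = 0.0182), the largest fall among the 11. Ndufb4, another membrane arm subunit and the bearer of the NRF1 motifs above, had 747, 677, 796 and 648 against 557, 573, 618 and 613. Its log2 change was -0.28 (SE 0.08, limma adjusted p = 0.0212). Ndufb6, also of the membrane arm, had 640, 666, 723 and 699 against 518, 581, 581 and 603 and fell by 0.26 on the log2 scale (limma adjusted p = 0.0207). For these 3 genes the groups did not overlap.

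In the matrix arm, which binds NADH and holds the iron-sulfur clusters, Ndufs1 is a core subunit with several of those clusters. It had 2360, 2280, 2473 and 2434 normalized counts at vehicle and 2070, 2189, 2045 and 2185 at venetoclax, a log2 change of -0.17 (SE 0.05, limma adjusted p = 0.0260). The venetoclax libraries were all lower, and the change was the smallest of the 11. Ndufv3, an accessory subunit of the NADH-binding module, had 1252, 1027, 1300 and 1128 against 919, 1046, 958 and 924 and fell by 0.29 (limma adjusted p = 0.0187). Here venetoclax 2 lay above vehicle 2, so the groups overlapped. Ndufa7, an accessory subunit, had 1377, 1217, 1370 and 1239 against 956, 1144, 1152 and 1176 and fell by 0.24 (limma adjusted p = 0.0370). Venetoclax 1 stood well below the other venetoclax libraries. Ndufv1, the flavin-bearing subunit where NADH is oxidized, did not pass (log2 change -0.09, SE 0.06, limma adjusted p = 0.288), nor did Ndufab1, the mitochondrial acyl carrier protein (-0.05, SE 0.07, limma adjusted p = 0.653).

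Complex II is succinate dehydrogenase, which also serves the tricarboxylic acid cycle. Sdha, the flavoprotein that oxidizes succinate, had 6828, 6285, 7244 and 6427 normalized counts at vehicle and 6894, 6658, 6629 and 6667 at venetoclax. Its groups overlapped, and the log2 change was 0.01 (95% interval -0.10 to 0.12, limma adjusted p = 0.956). Sdhb, the iron-sulfur subunit, had a log2 change of -0.14 (SE 0.05, limma adjusted p = 0.0794). Sdhc, a membrane anchor, had 1692, 1537, 1682 and 1482 against 1415, 1409, 1327 and 1497, a log2 change of -0.18 (SE 0.06, limma adjusted p = 0.0507). The anchor thus lay just outside the threshold, with 1 venetoclax library inside the vehicle range.

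Complex III had a single gene past the threshold in Treg. Uqcrq, a small subunit next to cytochrome b, had 930, 766, 992 and 925 normalized counts against 716, 740, 759 and 823, a log2 change of -0.25 (SE 0.08, limma adjusted p = 0.0450). Venetoclax 4 exceeded vehicle 2, so the groups overlapped. Neither catalytic subunit encoded in the nucleus passed: the Rieske iron-sulfur protein Uqcrfs1 had a log2 change of -0.17 (SE 0.06, limma adjusted p = 0.0555) and cytochrome c1, Cyc1, of -0.06 (SE 0.05, limma adjusted p = 0.411). Uqcrc1, a core subunit, had -0.07 (SE 0.05, limma adjusted p = 0.359).

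Complex IV, cytochrome c oxidase, had 3 genes past the threshold in Treg. Cox7a2l had 10841, 9798, 12103 and 10558 normalized counts at vehicle and 8737, 9522, 9159 and 8556 at venetoclax. The groups did not overlap, and its log2 change of -0.26 (SE 0.06, limma adjusted p = 0.0111) had the smallest adjusted p of the 72 genes. Cox4i1, the broadly expressed form of a nuclear subunit needed for assembly of the enzyme, had 6430, 5454, 6419 and 5777 against 4861, 5386, 5343 and 5244. Its log2 change was -0.21 (SE 0.06, limma adjusted p = 0.0284), again without overlap. Cox8a, a small structural subunit and the bearer of the ETS motif above, had 1721, 1683, 1836 and 1592 against 1400, 1453, 1447 and 1631. It fell by 0.20 (SE 0.06, limma adjusted p = 0.0325), with venetoclax 4 inside the vehicle range.

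Other complex IV genes did not pass in Treg. Cox6a1, a regulatory subunit, had a log2 change of -0.14 (SE 0.05, limma adjusted p = 0.0857), with all venetoclax libraries below all vehicle libraries, and Ndufa4 had -0.10 (SE 0.07, limma adjusted p = 0.335). Isoforms known from other tissues were close to the floor of the tables. Cox7a1, the heart and muscle form, had 6.82 to 19.8 normalized counts over the 8 Treg libraries, and Cox6b2, the testis form, had 9.73 to 16.4. Cox7a2, the widely expressed isoform, was also low here, at 1.92 to 19.95 in Treg and 12.8 to 29.6 in Tcon. Its Treg log2 change of -0.69 had an SE of 0.50 (limma adjusted p = 0.357), so a change of that size was not detectable at such low counts.

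Complex V makes ATP, and all 13 of its genes were below 0 in Treg with 0 past the threshold. Atp5a1, the subunit alpha of the catalytic head, had the smallest change, with 16108, 14809, 17221 and 16411 normalized counts against 15597, 15126, 15540 and 15954 (log2 change -0.05, SE 0.05, limma adjusted p = 0.545). Atp5b, the catalytic subunit beta, had a log2 change of -0.10 (SE 0.05, limma adjusted p = 0.180). The 3 genes for the proton-carrying subunit c had -0.14 (Atp5g1, SE 0.07), -0.16 (Atp5g2, SE 0.07) and -0.09 (Atp5g3, SE 0.06), with limma adjusted p of 0.153, 0.127 and 0.320. Atp5o, in the stalk that holds the catalytic head, had the largest fall of the complex (-0.19, SE 0.07, limma adjusted p = 0.0625), and in its gene, as in the other 12, vehicle and venetoclax ranges overlapped.

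Outside the 5 complexes, Atp5sl, listed in RefSeq as Dmac2, had 906, 982, 917 and 1025 normalized counts in Treg at vehicle and 776, 809, 856 and 803 at venetoclax. The groups did not overlap, and it fell by 0.24 on the log2 scale (SE 0.06, limma adjusted p = 0.0163).

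**Figure D2:**
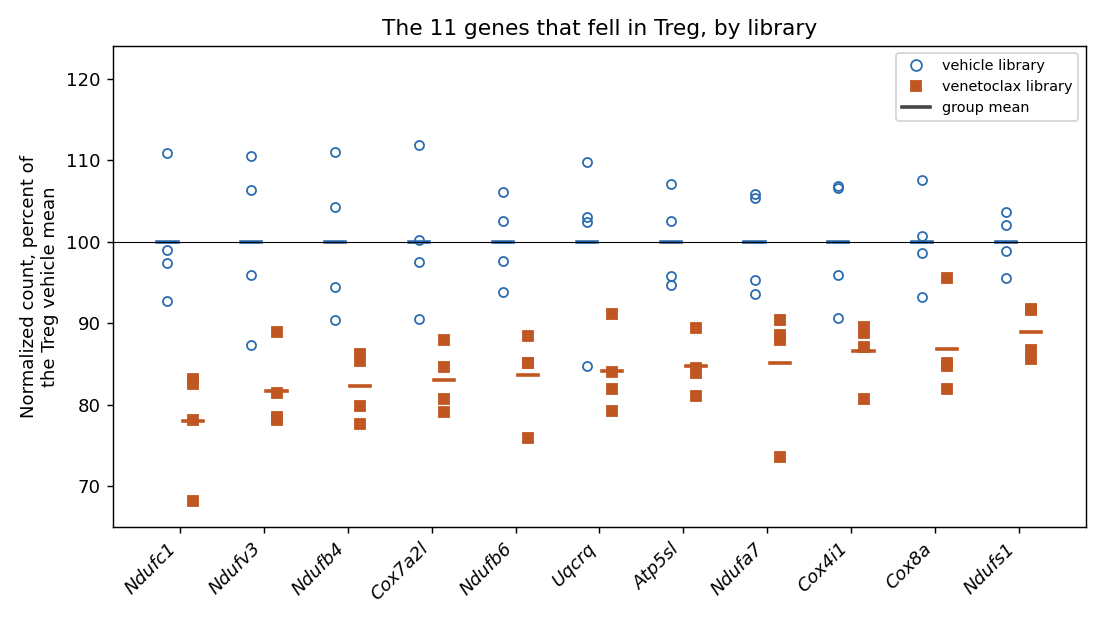
Normalized counts of the 11 genes that fell in Treg, as a percentage of the vehicle mean of the gene, for each of 4 vehicle and 4 venetoclax libraries, with group means as bars. In 8 of the 11 genes every venetoclax library lies below every vehicle library, and Ndufv3, Uqcrq and Cox8a overlap.

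The size of the Treg result rested on single libraries. Vehicle 3 held the highest value for 53 of the 72 genes, and venetoclax 1 held the lowest for 49, including 9 of the 11 that fell. Without venetoclax 1 the number past the threshold dropped to 1 (Cox7a2l, where 5.27% of all genes fell), without vehicle 3 to 3 (Atp5d, Atp5sl and Cox7a2l, where 5.3% fell) and without vehicle 1 to 4 (Atp5sl, Cox7a2l, Ndufb6 and Ndufc1, where 5.77% fell). Without vehicle 2, the lowest of the vehicle libraries, it reached 24 (9.1% of all genes). Cox7a2l was the 1 gene of the 11 that passed with each of the 8 libraries left out, with adjusted p from 0.00440 to 0.0376. The direction held with each library left out: 68 to 70 genes stayed below 0 in these fits, and the median ranged from -0.18 to -0.10. The 72 genes moved together within a library, so such counts are not independent observations. In vehicle 2, 67 of the 72 lay below the vehicle mean, and in vehicle 3, 8 did.

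**Figure D3:**
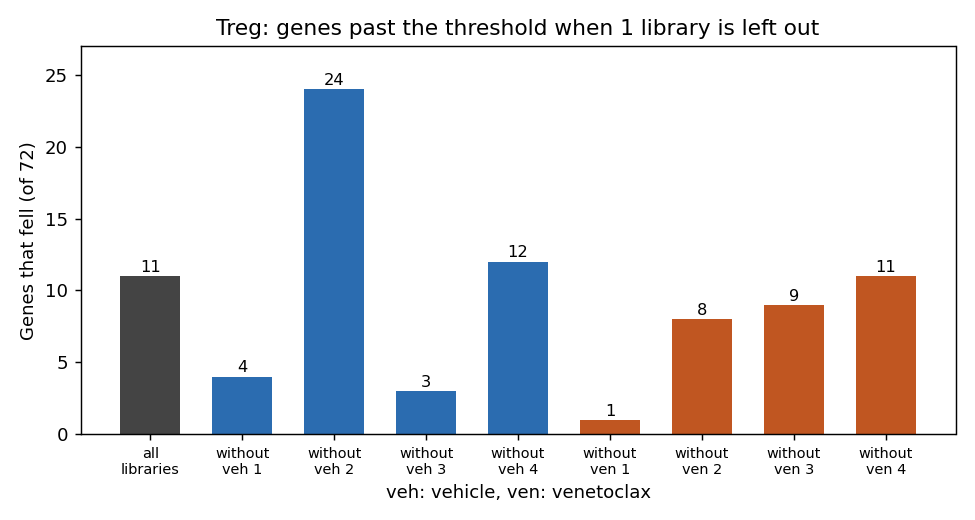
Number of the 72 genes that fell in Treg (limma, adjusted p under 0.05) with all libraries and with each of the 8 left out in turn. Counts run from 1 without venetoclax 1 to 24 without vehicle 2, against 11 with all libraries.

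When the level of Y-linked reads entered as a covariate, 3 genes fell (Atp5sl, Cox7a2l and Ndufc1), where 5.93% of all genes did, and 64 of 72 were below 0 (median -0.09). Without vehicle 3 and venetoclax 3 it was 2 (Atp5d and Atp5sl, 3.79% of all genes). Without venetoclax 1 and 3 the count was 0 with limma (2.2% of all genes), and 68 of 72 were below 0 (median -0.10). Relative to the vehicle mean, the median of the 72 genes stood at 0.03, -0.11, 0.12 and -0.03 in Treg vehicle 1 to 4 and at -0.23, -0.12, -0.11 and -0.08 in venetoclax 1 to 4. Venetoclax 3 and 4 were no lower than vehicle 2.

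**Figure D4:**
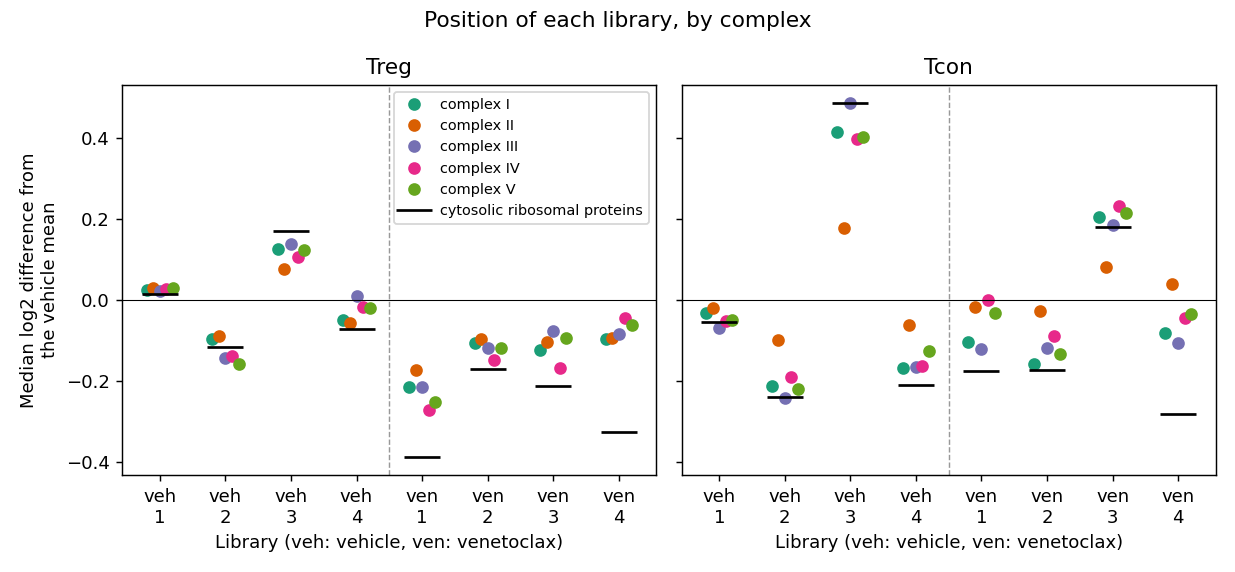
Median log2 difference of each complex from its vehicle mean in each of the 16 libraries (points), with cytosolic ribosomal protein genes as horizontal bars. In Treg vehicle 2 overlaps the venetoclax libraries, and in Tcon vehicle 3 and venetoclax 3 lie above the other libraries in all 5 complexes.

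Other gene groups of the pathway and its surroundings moved unevenly in Treg. Of the 12 subunits encoded by mitochondrial DNA that were measured, 5 fell and 0 rose, all of them complex I subunits (mt-Nd1, mt-Nd2, mt-Nd3, mt-Nd5 and mt-Nd6), and the median log2 change was -0.25. Of all Treg genes 8.81% fell. With edgeR 10 of the 12 fell (9.64% of all genes) and with DESeq2 all 12 (10.3%). mt-Nd6 had 11628 ± 1601 normalized counts at vehicle and 8894 ± 550 at venetoclax (SD, n = 4, log2 change -0.38, limma adjusted p = 0.00652). In Tcon 0 of the 12 passed, but all 12 were below 0 (median -0.20), as 49.5% of all Tcon genes were. There vehicle 3 stood 0.59 above the vehicle mean and the other vehicle libraries at -0.28 to -0.15. Of 45 assembly factors in Treg, 2 fell and 0 rose (median -0.04, 4 fell with DESeq2), where 8.81% of all genes fell (10.3% with DESeq2). These were Cox16, which acts in complex IV assembly (log2 change -0.37, limma adjusted p = 0.00603), and Ndufaf8, which acts in complex I assembly (-0.35, limma adjusted p = 0.0310).

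Of 14 regulators of mitochondrial content in Treg 2 rose and 0 fell, where 10.7% of all genes rose and 8.81% fell. Pprc1, a coactivator of the PGC-1 family, rose by 0.19 (limma adjusted p = 0.0158) and Polrmt, the mitochondrial RNA polymerase, by 0.22 (limma adjusted p = 0.0274) on the log2 scale. Of 18 genes of the tricarboxylic acid cycle and its entry, Pdk1 alone passed in Treg, where 8.81% of all genes fell. With edgeR 2 of the 18 fell (9.64% of all genes) and with DESeq2 3 (10.3%). Pdk1, the kinase that restrains pyruvate dehydrogenase, fell from 5392 ± 446 to 3421 ± 199 normalized counts (SD, n = 4), a log2 change of -0.65 (limma adjusted p = 8.65e-05). In Tcon 1 of the 18 fell, where 2.99% of all genes did. Of 10 carriers and ATP exchange genes in Treg 0 passed with limma, and 2 had an unadjusted p under 0.05 (33.3% of all genes). With edgeR 1 of them fell (9.64%) and with DESeq2 2 (10.3%).

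Ribosomal protein genes and transcript length moved with the result. Of 67 cytosolic ribosomal protein genes, 60 fell in Treg (median log2 change -0.27), where 8.81% of all genes did. In Tcon 0 of the 67 passed, and 60 were below 0 (median -0.11), with vehicle 3 at 0.49 above the vehicle mean. Over the 69 oxidative phosphorylation genes averaging 50 or more normalized counts, the Treg log2 change was less negative in longer transcripts (r = 0.32, rho = 0.30, across genes of the same libraries, which are not independent). Over 9744 genes of the table these were 0.18 and 0.24. In transcripts under 700 bases the median was -0.16 for 25 pathway genes and -0.15 for all 228 genes of that length. The 228 include these 25, and the classes of all genes below likewise include their pathway genes. Ribosomal protein genes were not taken out of them either. From 700 to 1500 bases it was -0.14 for 26 pathway genes against -0.06 for 1498 genes, and from 1500 bases on it was -0.10 for 18 against 0.02 for 8018. The medians of pathway genes and of all genes thus lay closest in the shortest class and farther apart in the other classes, and these differences were not tested. The part of transcript length and of what moved the ribosomal protein genes in the result was not tested.

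**Figure D5:**
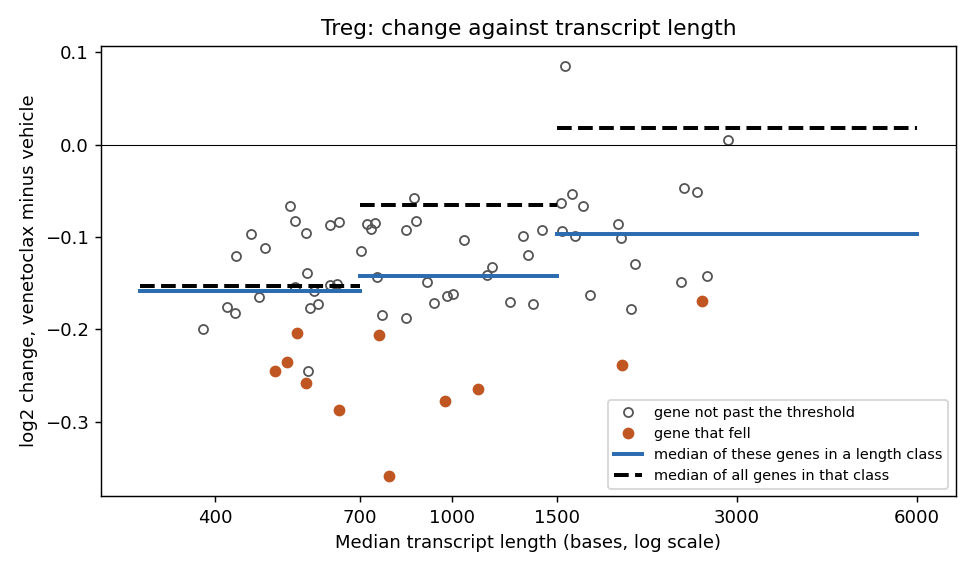
Treg log2 change against median transcript length (log axis) for the 69 pathway genes averaging 50 or more normalized counts. Filled points are the 11 that fell. Solid bars are the medians of the pathway genes in a length class, and dashed bars those of all genes in it, pathway genes included. Solid and dashed bars lie together under 700 bases (-0.16 and -0.15) and apart from 1500 bases on (-0.10 and 0.02).

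Some of these genes share sequence with copies elsewhere in the genome. The share of a gene's 50-base words that also occur in transcripts of other genes was above 10% in 20 of 72 genes. Among those that fell it was 37.0% for Ndufb4 (processed pseudogenes such as Ndufb4c), 31.6% for Ndufb6 (the overlapping gene Smim27), 17.8% for Cox7a2l and 12.3% for Cox4i1 (the neighbouring gene Emc8). For Atp5l it was 84.8%. The sources used here do not say how such reads were counted, so the values of these genes are uncertain.

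In Tcon, 0 of the 72 genes passed the threshold with limma, where 6.91% of all genes did (3.92% rose and 2.99% fell). The count was 2 at an unadjusted p under 0.05 (Atp5g1 and Atp5sl), where 22.6% of all Tcon genes passed. On the recovered reads it was 0 with edgeR, where 7.04% of all genes passed, and 1 that fell with DESeq2 (Atp5sl), where 6.36% fell. The median log2 change was -0.02 and 44 of 72 genes were below 0. With the level of Y-linked reads as a covariate the median was 0.05 and 23 of 72 genes were below 0. In that fit 0 genes passed, where 2.92% of all genes did. Complex medians were -0.03, 0.02, -0.03, 0.01 and 0.02 from I to V.

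Atp5sl had 1140, 1225, 1027 and 1203 normalized counts in Tcon at vehicle and 974, 993, 958 and 927 at venetoclax. It was the 1 gene of the 72 with every venetoclax library below every vehicle library (7.47% of all Tcon genes had that order, and 8.78% the opposite, where 0 of the 72 did). Its log2 change was -0.25 (SE 0.07, limma adjusted p = 0.0678), and with the replicate number as a block it fell (limma adjusted p = 0.0257), as 7.9% of all genes did. Atp5g1, a gene of subunit c, had 1261, 1177, 1305 and 1155 against 1406, 1327, 1509 and 1298, a log2 change of 0.18 (SE 0.07, limma adjusted p = 0.184). Only the lowest venetoclax library lay inside its vehicle range.

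In Tcon, vehicle 3 held the highest value for 56 of 72 genes, with a median of 0.40 above the vehicle mean, and venetoclax 3 stood at 0.21, while the other 6 libraries lay between -0.21 and -0.05. Ribosomal protein genes (0.49) and subunits encoded by mitochondrial DNA (0.59) were high in vehicle 3 too. Cox7a2l had 11603, 10130, 14653 and 10325 normalized counts at vehicle and 10391, 10024, 12425 and 9744 at venetoclax. Vehicle 3 and venetoclax 3 were the highest of their groups, and the groups overlapped (log2 change -0.12, 95% interval -0.40 to 0.15, limma adjusted p = 0.625). Ndufb4 had 673, 544, 1516 and 523 against 585, 577, 715 and 687 (log2 change -0.20, 95% interval -0.83 to 0.42).

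Without Tcon vehicle 3 the picture in Tcon turned: the median log2 change became 0.12 and 7 of 72 genes were below 0. Then Ndufa4 in Tcon rose (0.38, limma adjusted p = 0.0383) and Atp5sl in Tcon fell (-0.30, limma adjusted p = 0.0124), where 5.74% of all genes rose and 5.4% fell. The same genes passed without vehicle 3 and venetoclax 3, where 6.87% rose and 6.05% fell (median 0.04). Ndufa4 itself had 1797, 1529, 3206 and 1608 normalized counts at vehicle and 2065, 1813, 2555 and 2174 at venetoclax, so apart from vehicle 3 every venetoclax value exceeded every vehicle value. The median SE of a log2 change was 0.14 in Tcon and 0.07 in Treg. In 67 of the 72 genes the 95% interval in Tcon held the Treg value, so at this spread the Tcon data do not tell a change of the Treg size from the measured one in those genes.

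The difference between the subsets was tested gene by gene as an interaction, over genes in both tables. None of the 72 genes passed with limma (0 of 72, where 1.3% of all genes did), 0 passed with edgeR (1.31%) and 0 with DESeq2 (2.74%), and 3 had an unadjusted p under 0.05, where 10.1% of all genes had one. The Treg change was the lower one in 67 of 72 genes, with a median difference of -0.11 (56 of 72 with edgeR and 58 with DESeq2). The genes with the smallest p were Atp5g1 (Treg minus Tcon change -0.32, SE 0.10, limma adjusted p = 0.167), Ndufa10, an accessory subunit of complex I (-0.21, SE 0.07, limma adjusted p = 0.208), and Ndufa3, a further one (-0.27, SE 0.13, limma adjusted p = 0.479). These 3 were picked by their p. The median difference was -0.27 without Tcon vehicle 3, -0.04 without Tcon vehicle 2 and 0.00 without venetoclax 1 and 3, so its size rested on which libraries were kept. With the level of Y-linked reads as a covariate the median difference was -0.14, and 0 genes passed, where 0.186% of all genes did.

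Levels in the subsets were set side by side as CPM, with no test because the tables were normalized separately. Summed over the 72 genes, Tcon had 6932 and Treg 7083 CPM at vehicle, and 6893 and 6550 at venetoclax. Per kilobase of transcript, the highest levels at vehicle in Treg were those of Uqcrh, the hinge protein of complex III (427 CPM per kilobase), Cox7a2l (413), Atp5g2 (358), Atp5b (357) and Cox4i1 (336). In Tcon the corresponding levels were 451, 445, 304, 352 and 319.

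At vehicle, 6 of 72 genes had every Treg library above every Tcon library and 0 had every one below, where 24.5% of genes in both tables were above and 12% below. The 6 were Uqcrc1 (1.12 times the Tcon mean), Ndufv1 (1.17), Atp5s (1.22), Atp5g1 (1.29), Ndufb7 (1.33) and Cox6b2 (0.413 to 0.664 CPM in Treg). Atp5g1 had 59.9 to 71.1 CPM in Treg and 49.6 to 53.6 in Tcon. For the other 66 genes the subsets overlapped. At venetoclax the order was different: 1 gene (Cox6b2) was above and 9 were below, where 30.2% and 18.3% of all genes were. The 9 included Cox7a2l (368 to 404 CPM in Treg, 421 to 517 in Tcon), Cox8a, Uqcrfs1, Ndufv3, Atp5b and Atp5sl.

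In the authors' deposited table for Treg, 15 of the 72 genes had an adjusted p under 0.05, where 9.36% of all genes fell by that rule. All 15 were lower in venetoclax, and they included the 11 above. In the authors' deposited table for Tcon, 1 gene had an adjusted p under 0.05, and it was lower, as 5.23% of all genes were.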

How the data were processed

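Per the labels' protocols, libraries made from total RNA were read on a NovaSeq. HISAT2, SAMtools and mm10 are named per the submitters' processing notes. Which program counted reads, on which annotation and strand, is not stated in these sources. The deposited values are normalized counts per gene (a signal: read counts divided by 1 size factor per library), beside the authors' mean, log2 fold change with its standard error, p-value and adjusted p-value, per the file headers. Each subset has its own table, already without genes of low counts. Repeated lines (40 in Tcon, 43 in Treg) were read once, and 18 Treg symbols turned into dates were restored by gene ID. Dividing by the size factor step gave whole reads (within 0.01) for 100.0% of values. For Tcon vehicle 2, vehicle 4 and venetoclax 3 the step is close to 1 read.

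The main test was limma 3.58.1 (R 4.3.3) with a mean-dependent prior on log2(normalized count + 1), two-sided, fitted over all genes of a table with Benjamini-Hochberg adjustment and a threshold of 0.05. A log2 change is on that scale. The interaction used all 16 libraries. Alternatives were pseudocounts of 0.5 and 5, a mean of at least 50, TMM and upper quartile scaling, edgeR 4.0.16 and DESeq2 1.42.0 on recovered reads, a replicate block, a Y-linked covariate and left-out libraries. Only the main limma fit within each subset was tested on simulated data, and the interaction and the alternatives were not. In Tcon the correlations of same-numbered vehicle and venetoclax libraries were 0.119, 0.555, 0.614 and 0.272. Each was the highest of its vehicle library except for vehicle 1 (0.252 with venetoclax 4). Across subsets, libraries with the same of the 8 replicate codes deviated together (0.461 to 0.766). Each correlation was the highest of its Tcon library except for venetoclax 2 (0.481, and 0.505 with another code). Blocking the interaction on the codes changed no call among the 72.

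The genes and lists were chosen with earlier results of these data known. Named genes are those past the threshold (at most 12 each way), the largest rise and fall per complex, a fixed set of subunits, and up to 3 of each other list by p. Genes named beyond it, in small counts or for their levels or shared sequence, were chosen after their values were seen. A gene's length is the median of its GENCODE vM21 basic transcripts, and positions and promoters are from RefSeq on GRCm38.p6.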

Additional observations from a re-analysis of the deposited data

Results flagged for a closer look

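Library values of the named genes and complex medians were checked in 152 groups of 4, and 20 had a highest or lowest library far from the others. Chance gives about 1 in 20 groups.

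Tcon vehicle 3 was far above the other vehicle libraries for Cyc1 (2493 normalized counts, the others 1865 to 1959), Ndufa4 (3206, the others 1529 to 1797), Ndufb4 (1516, the others 523 to 673), Ndufc1 (441, the others 259 to 279) and Uqcrq (1423, the others 714 to 828). Tcon venetoclax 3 was far above the other venetoclax libraries for Cox4i1 (6618, the others 5273 to 5437), Cox8a (2296, the others 1703 to 1782), Ndufa7 (1474, the others 1028 to 1086), Ndufa8 (376, the others 291 to 305), Sdhb (2173, the others 1753 to 1795) and Uqcrfs1 (2023, the others 1669 to 1678). The complex III median of that library was 0.19 on the log2 scale relative to the vehicle mean, the others -0.12 to -0.10.

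In Treg, vehicle 3 was the lowest of the vehicle libraries for Atp5d (750 normalized counts, the others 902 to 931) and the highest for Ndufv1 (2158, the others 1832 to 1881). Vehicle 2 was the lowest for Atp5g3 (3109, the others 3566 to 3616) and Uqcrc1 (3433, the others 3695 to 3717). Venetoclax 1 was the lowest of the venetoclax libraries for Ndufa7 (956, the others 1144 to 1176) and Ndufab1 (576, the others 599 to 601), and the highest for Sdha (6894, the others 6629 to 6667). Its complex II median was -0.17 on the log2 scale, the others -0.10 to -0.09.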

How the results depend on the processing

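In Treg the count of genes past the threshold (11 with limma) was 17 with DESeq2, 21 with upper quartile scaling, 3 with the Y-linked covariate, 2 without vehicle 3 and venetoclax 3 (Atp5d and Atp5sl), 0 without venetoclax 1 and 3, and 1 to 24 with each library left out. It was 11 to 14 with edgeR, TMM scaling, the filter and both pseudocounts. With the replicate number as a block it was 14. The share of all Treg genes that fell moved too, from 2.2% without venetoclax 1 and 3 to 12.2% with upper quartile scaling. In Treg the correlations of same-numbered libraries were -0.039, 0.414, 0.256 and 0.385. Each was the highest of its vehicle library except for vehicle 1 (0.363 with venetoclax 4). In Tcon the count (0) was 1 with DESeq2 and 1 with the replicate block (Atp5sl each time), 2 without vehicle 3 and venetoclax 3, and 0 to 2 with each library left out. Of all Tcon genes, 2.74% passed without venetoclax 1 and 11.1% without vehicle 3. The interaction gave 0 under every alternative run, the replicate block included. The complex medians moved by less than the spread between libraries under each alternative run, and 0 of them changed sign in Treg, where single left-out libraries gave -0.18 to -0.07. In Tcon they crossed 0. Changes of genes at a few reads (Cox7a1, Cox7a2, Cox6b2) are imprecise, and the sources used here do not say why Cox7a2 was so low.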
